A study of Homo sapiens with 2 samples.

Results

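The immediate early genes of the AP-1 and EGR families were followed in BE(2)-C cells, an established human neuroblastoma line, which the labels give as wild type. The 10 members were listed by symbol with no filter on their values, at a time when earlier results of these data were known. All of them were found among the 16005 genes of the authors' deposited table: FOS, FOSB, JUN, JUNB, JUND, EGR1, EGR3, IER2, IER3 and NR4A1. One group of cells was grown for 7 days in EMEM/F12, a classical culture medium. The other was grown for 7 days in HPLM, a medium made to resemble human plasma in its metabolites and salts. Both media held 10% fetal bovine serum and 1% penicillin-streptomycin. GEO lists 1 sample per medium, and the table holds 3 library columns for each. Whether these are separate cultures is not in the labels. The p-values therefore reflect library-to-library spread alone, and that spread may be technical.

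Immediate early genes are transcribed within minutes of a stimulus, without the need for new protein, and their mRNAs are mostly short-lived. Growth factor signals reach their promoters through the MAP kinases, which act on ELK proteins bound with serum response factor, SRF, and through CREB. FOS and JUN proteins pair to form the transcription factor AP-1, while EGR proteins are zinc finger factors held in check by the corepressors NAB1 and NAB2. In neuroblastoma, AP-1 subunits are known as part of the mesenchymal cell state, and EGR1 and NR4A1 as genes that respond to neurotrophic signals.

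The members did not move together. In HPLM, EGR1 fell by 53.9%, NR4A1 fell by 51.3%, FOS rose by 80.2%, JUND and IER2 rose by 25.0% and 14.7%, and the JUN mean differed by 0.582%. Of the 10 members, 4 rose in the authors' deposited table (FOS, JUND, IER2 and IER3), 2 fell (EGR1 and NR4A1) and 4 did not pass an adjusted p of 0.05 (FOSB, JUN, JUNB and EGR3). Over all genes with a p-value, that table calls 55.6%, with 26.8% higher and 28.8% lower in HPLM, so 6 of 10 is near the share of the whole table. The libraries of the media did not overlap for 5 of the 10 members, beside 68.6% of all genes. The median log2 fold change in the authors' deposited table was 0.14 for the members and 0.01 for all genes tested. Levels below are normalised reads, which are read counts divided by the authors' factor for each library. Changes are log2 ratios of the mean in HPLM over the mean in EMEM/F12, ± SE over 3 libraries of each medium. In bulk RNA, fewer cells that express a gene and less RNA per cell cannot be told apart.

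**Figure D1:**
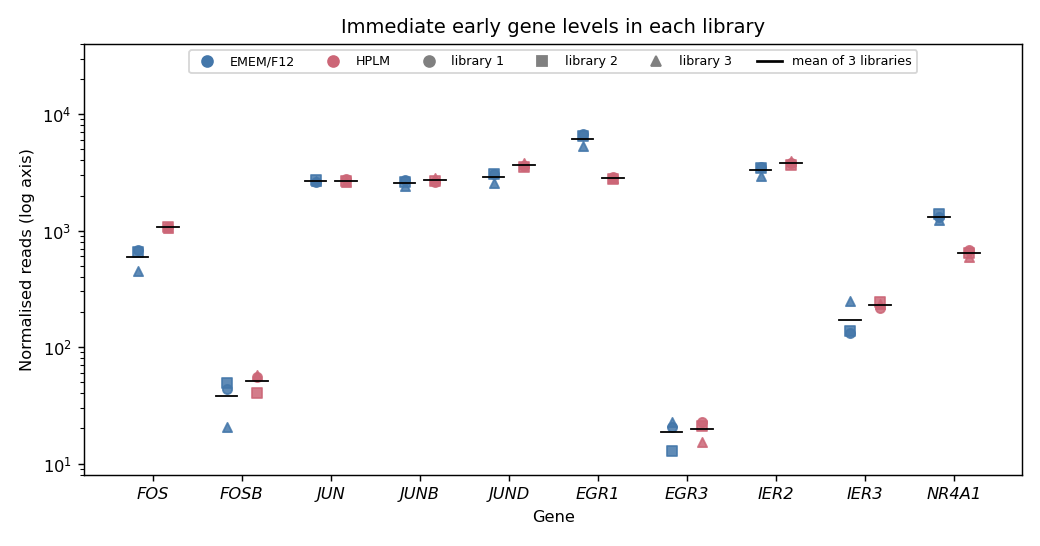
Normalised reads (log axis) of the 10 members in each library, with EMEM/F12 in blue, HPLM in red, marker shape for the library number and a bar for the mean of 3 libraries. EGR1 and NR4A1 are lower in every HPLM library, FOS is higher in every one, and the JUN points of the media overlap.

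The libraries held 17504237 to 21676080 reads. EMEM/F12 library 3 stood apart from libraries 1 and 2 of its medium, with a chi-square per gene of 10.0 and 8.59 against them, where the other pairs within a medium gave 1.40 to 2.41. All 8 markers of adrenergic neuroblastoma cells were present in every library. Their sum was 135857, 134306 and 113356 normalised reads in EMEM/F12 libraries 1, 2 and 3, and 65585 to 67694 in HPLM. Each of the 8 was lower in EMEM/F12 library 3 than in libraries 1 and 2. MYCN made up the largest part of that sum, with means of 72489 in EMEM/F12 and 29419 in HPLM. In the test between media, 7 of the 8 fell in HPLM and 1 rose (GATA3, log2 ratio 0.35 ± 0.09). The 11 markers of mesenchymal neuroblastoma cells and fibroblasts summed to 48347 and 50652 in EMEM/F12 libraries 1 and 2, to 96268 in library 3, and to 76642 to 84109 in HPLM. Of these 11 markers, 7 were higher in EMEM/F12 library 3 than in libraries 1 and 2, among them the collagen gene COL1A1, and 3 were lower. Most of the sum came from COL1A1 and COL1A2, which averaged 46001 and 16834 normalised reads in HPLM and did not pass the test between media. By call, 2 of the 11 rose in HPLM (SNAI2, log2 ratio 0.59 ± 0.16, and THY1, 0.10 ± 0.03), 3 fell (PDGFRB, -1.48 ± 0.04, TWIST1, -0.997 ± 0.118, and LUM, -0.98 ± 0.14) and 6 did not pass. Of 5 blood markers 1 was measured, CD14, with a mean of 67.9 ± 8.63 normalised reads in EMEM/F12 and 55.5 ± 11.4 in HPLM, and none of the 4 endothelial markers looked for had a measured value. Ratios against libraries 1 and 2 and against library 3 are drawn for every member. The text gives such a comparison, or a fit without library 3, for some genes only.

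The promoters of EGR1, which fell, and of FOS and JUND, which rose, are shown so that the letters of members that moved in opposite directions can be compared. RefSeq held 9 promoters of 8 members, with 2 for NR4A1, and EGR3 and IER3 were not matched. Each stretch below is the 250 bases before the RefSeq start, 5′ to 3′ on the gene's strand of GRCh38.p14. Capitals mark CArG boxes, the elements that SRF binds, and the motifs TGACG, TGACGTCA, TGACATCA and TATAAA, searched on both strands. TGACG is the core of the CREB site and is contained in TGACGTCA. The EGR1 stretch is chr5:138465229-138465478, plus strand. The FOS stretch is chr14:75278578-75278827, plus strand, and the JUND stretch is chr19:18281623-18281872, minus strand.
EGR1: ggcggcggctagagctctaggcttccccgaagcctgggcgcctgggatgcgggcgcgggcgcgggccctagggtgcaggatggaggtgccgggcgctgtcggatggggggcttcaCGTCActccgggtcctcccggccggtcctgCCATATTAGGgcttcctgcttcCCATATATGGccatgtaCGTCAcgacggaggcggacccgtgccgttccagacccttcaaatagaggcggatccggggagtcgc
FOS: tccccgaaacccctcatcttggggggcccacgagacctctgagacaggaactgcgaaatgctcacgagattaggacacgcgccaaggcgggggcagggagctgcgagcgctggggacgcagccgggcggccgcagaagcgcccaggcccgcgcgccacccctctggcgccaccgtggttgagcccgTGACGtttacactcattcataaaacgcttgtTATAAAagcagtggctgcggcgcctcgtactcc
JUND: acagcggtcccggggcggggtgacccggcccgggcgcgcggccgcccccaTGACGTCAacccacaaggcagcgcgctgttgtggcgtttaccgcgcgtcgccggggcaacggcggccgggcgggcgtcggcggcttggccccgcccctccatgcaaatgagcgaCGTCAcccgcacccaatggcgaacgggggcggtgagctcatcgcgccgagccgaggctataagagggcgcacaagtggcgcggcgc

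EGR1 was the only one of the 9 member promoters with a CArG box in these 250 bases, and it held 2, from 105 to 96 and from 83 to 74 bases before the start. Of 35116 RefSeq promoters, 1.16% held one in the same length. TGACG stood in the promoters of 7 members (EGR1, FOS, FOSB, IER2, JUN, JUNB and JUND), against 21.2% of all promoters. The full TGACGTCA was found in JUND and in 1.65% of all, TGACATCA in JUN and in 2.37% of all, and TATAAA in FOS, FOSB and JUNB and in 10.7% of all. The AP-1 motif TGANTCA was in none of the 9 and in 6.57% of all, and the EGR motif GCGNGGGCG was in EGR1 and in 8.41% of all. Members with TGACG included genes that rose, that fell and that did not pass. Bases further upstream were not searched, so the absence of a motif, such as the CArG box in FOS, holds for the searched stretch alone. A match describes the letters and no more.

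EGR1 encodes a zinc finger transcription factor induced by growth factors and serum (ENSG00000120738, chromosome 5, 138465490 to 138469315, plus strand of GRCh38, protein-coding). Its level was 6705, 6452 and 5326 normalised reads in EMEM/F12 libraries 1, 2 and 3, and 2901, 2795 and 2829 in the HPLM libraries. All HPLM libraries lay below all EMEM/F12 libraries, as they did for 35.0% of all genes. The mean fell from 6161 ± 734 to 2842 ± 54.1 (SD, n = 3), a log2 ratio of -1.12 ± 0.10, with an adjusted p of 6.43e-61 in the authors' deposited table. Against EMEM/F12 libraries 1 and 2 alone the log2 ratio of EGR1 was -1.21, and against library 3 alone it was -0.91.

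NR4A1 encodes an orphan nuclear receptor, also called NUR77, that is induced by calcium and growth factor signals (ENSG00000123358, chromosome 12, 52022832 to 52059507, plus strand). It measured 1315, 1382 and 1241 normalised reads in EMEM/F12 and 678, 642 and 596 in HPLM. The ranges did not overlap, and the EMEM/F12 libraries were close to each other. The mean fell from 1313 ± 70.4 to 639 ± 41.2, a log2 ratio of -1.04 ± 0.07 and an adjusted p of 1.20e-40 in the authors' deposited table. EGR1 and NR4A1 were the only members past a 2-fold change, a size that, with a call, 6.73% of all genes reached downward and 5.39% upward. No member that rose reached it. EGR3, a second EGR family gene on chromosome 8, was near the lower end of what the table holds, with 20.6, 12.8 and 22.8 normalised reads in EMEM/F12 and 22.8, 21.2 and 15.2 in HPLM. These EGR3 values rest on 11 to 24 reads per library, and the 95% interval of its log2 change ran from -0.82 to 0.95, so a fall of the size seen for EGR1 is outside it and smaller changes in either direction are not.

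The corepressors of EGR1 fell with it. NAB1 went from 1132 ± 56.5 to 524 ± 35.4 normalised reads (log2 ratio -1.11 ± 0.07), and NAB2, which is itself an EGR1 target, from 1933 ± 97.2 to 1115 ± 26.6 (-0.79 ± 0.05). Per kilobase of exon, EGR1 stood at 8.46 ± 0.686 times NAB1 in EMEM/F12 and at 8.48 ± 0.737 times NAB1 in HPLM. The ratio of EGR1 to NAB2 was 3.05 ± 0.220 in EMEM/F12 and 2.44 ± 0.0476 in HPLM, with no overlap between the libraries of the media. Relatives of NR4A1 were scarce: NR4A2 measured 14.1 ± 4.69 and 18.4 ± 2.55 normalised reads, and NR4A3 13.4 ± 4.11 and 13.8 ± 1.22, in EMEM/F12 and HPLM, and neither passed the test.

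**Figure D2:**
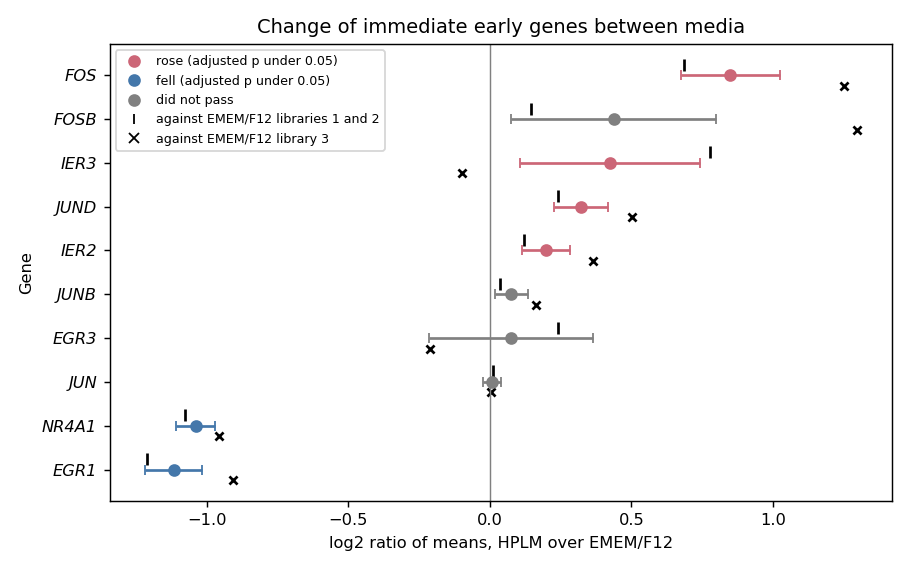
Log2 ratio of the mean in HPLM over the mean in EMEM/F12 for each member, with the SE as a bar and the colour for the call at an adjusted p under 0.05, and the same ratio against EMEM/F12 libraries 1 and 2 (vertical tick) and against library 3 (cross). EGR1 and NR4A1 lie near -1 on every measure, and IER3 changes sign, from 0.78 against libraries 1 and 2 to -0.10 against library 3.

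FOS, the prototype AP-1 subunit, which cannot pair with itself and needs a JUN partner, moved the opposite way (ENSG00000170345, chromosome 14, 75278774 to 75282230, plus strand). It measured 679, 653 and 450.1 normalised reads in EMEM/F12 libraries 1, 2 and 3, and 1078, 1076 and 1059 in HPLM. Library 3 was the lowest of EMEM/F12, the HPLM libraries lay close together, and the ranges did not overlap, as was so in this direction for 33.6% of all genes. The mean rose from 594 ± 125 to 1071 ± 10.0, a log2 ratio of 0.85 ± 0.18, with an adjusted p of 8.24e-06 in the authors' deposited table. Without EMEM/F12 library 3 the fitted log2 change of FOS was 0.68 (DESeq2, adjusted p = 1.56e-20). Against library 3 alone, in which the sum of the mesenchymal and fibroblast markers was highest, the log2 ratio was 1.25. Per kilobase of exon, FOS stood at 0.0927 ± 0.00939 of EGR1 in EMEM/F12 and at 0.365 ± 0.00684 of EGR1 in HPLM.

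FOSB, a close relative of FOS, was scarce. It measured 43.3, 48.8 and 20.7 normalised reads in EMEM/F12 and 55.1, 40.5 and 57.2 in HPLM, with library 3 again the lowest of EMEM/F12 and the ranges overlapping. Its log2 ratio was 0.44 ± 0.36 (adjusted p = 0.260 in the authors' deposited table), with a 95% interval of -0.21 to 1.09. FOSB lies opposite to and overlaps the repair gene ERCC1, which averaged 1309 normalised reads, and since the libraries carry no strand information, reads of the pair cannot be told apart where they overlap. EGR3, IER2, IER3 and NR4A1 also overlap opposite-strand transcripts in GENCODE, which were not analysed here.

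The FOS family holds 2 further genes. FOSL2, which encodes the FOS-related protein FRA2, rose from 1289 ± 67.8 to 3392 ± 25.6 normalised reads (log2 ratio 1.40 ± 0.04). FOSL1, which encodes FRA1, measured 83.5, 115 and 349 normalised reads in EMEM/F12 and 299, 342 and 267 in HPLM, and did not pass the test (adjusted p = 0.333 in the authors' deposited table). The FOSL1 log2 ratio was 1.61 against EMEM/F12 libraries 1 and 2 alone and -0.21 against library 3 alone. Per kilobase of exon, the 4 genes together summed to 467 ± 44.3 in EMEM/F12 and 974 ± 21.1 in HPLM, with no overlap between libraries. FOSL2 made up 38.7% ± 1.83 of that sum in EMEM/F12 and 48.7% ± 1.07 in HPLM. FOS made up 48.6%, 44.6% and 26.9% in EMEM/F12 libraries 1, 2 and 3, and 33.3% to 34.3% in HPLM, so that its share in library 3 lay below the HPLM range and in the other EMEM/F12 libraries above it. These sums and shares were not tested.

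**Figure D3:**
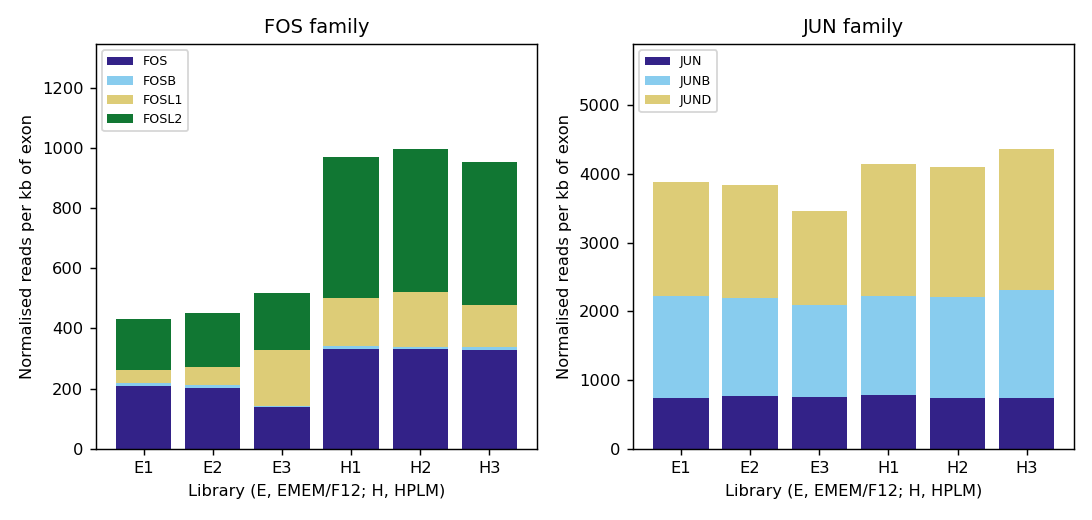
Normalised reads per kilobase of exon for the FOS family (left) and the JUN family (right), stacked by gene, in each EMEM/F12 (E) and HPLM (H) library. The FOS family total is 432 to 517 in EMEM/F12 and 955 to 997 in HPLM, and the JUN family total 3465 to 3876 and 4095 to 4363.

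JUN encodes the AP-1 subunit that can pair with itself as well as with FOS proteins (ENSG00000177606, chromosome 1, 58780788 to 58784327, minus strand). It measured 2601, 2728 and 2679.7 normalised reads in EMEM/F12 and 2783, 2639 and 2634 in HPLM. The ranges overlapped, and library 3 of EMEM/F12 lay between the other 2. The log2 ratio was 0.01 ± 0.03, with an adjusted p of 0.900 in the authors' deposited table and a 95% interval of -0.09 to 0.11. With spike-in scaling the JUN change was -0.054. JUN lay at the median of all genes, so recentring on the median gene sets its change to 0 by construction.

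JUNB, which is often a weaker activator than JUN, measured 2715, 2588 and 2426 normalised reads in EMEM/F12 and 2626, 2676 and 2845 in HPLM. Those ranges overlapped, and the log2 ratio of 0.08 ± 0.06 did not pass the test (adjusted p = 0.254 in the authors' deposited table, 95% interval -0.03 to 0.19). JUNB overlaps the opposite-strand gene HOOK2 in GENCODE.

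JUND, the JUN family gene that is usually expressed without a stimulus, measured 3072, 3075 and 2561 normalised reads in EMEM/F12 and 3556, 3500.0 and 3830.1 in HPLM. Library 3 was the lowest of EMEM/F12, and the media did not overlap. The log2 ratio of JUND was 0.24 against EMEM/F12 libraries 1 and 2 and 0.50 against library 3. The mean of JUND (ENSG00000130522, chromosome 19, 18279760 to 18281622, minus strand) rose from 2903 ± 296 to 3629 ± 177, a log2 ratio of 0.32 ± 0.09 and an adjusted p of 2.98e-06 in the authors' deposited table. Per kilobase, JUND made up 41.7% ± 1.78 of the JUN family in EMEM/F12 and 46.4% ± 0.656 in HPLM, and JUN 20.3% ± 1.46 and 18.1% ± 0.979.

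IER2 encodes a small nuclear protein induced with the AP-1 genes (ENSG00000160888, chromosome 19, 13150415 to 13154908, plus strand). It measured 3518, 3471 and 2952 normalised reads in EMEM/F12 and 3793, 3662 and 3943 in HPLM, with no overlap and library 3 the lowest of EMEM/F12. The log2 ratio was 0.20 ± 0.08, with an adjusted p of 0.00320 in the authors' deposited table. It did not pass with spike-in scaling (log2 change 0.14, DESeq2, adjusted p = 0.0897), by limma on log2(value + 1) (0.20, adjusted p = 0.0802) or without HPLM library 3 (0.17, DESeq2, adjusted p = 0.0635). Without EMEM/F12 library 3 it passed with a smaller change of 0.12 (DESeq2, adjusted p = 0.00977).

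IER3, also called IEX-1, encodes a stress-induced protein that affects cell survival and ERK signalling (ENSG00000137331, chromosome 6, 30743199 to 30744554, minus strand). It measured 132, 137 and 247 normalised reads in EMEM/F12 libraries 1, 2 and 3, and 216, 242 and 234 in HPLM. Library 3 lay above all HPLM libraries, so the media overlapped. The log2 ratio was 0.42 ± 0.32, with an adjusted p of 0.0494 in the authors' deposited table. Without EMEM/F12 library 3 the log2 change of IER3 was 0.78 (DESeq2, adjusted p = 1.21e-06), and without library 1 or 2 it was 0.26 and 0.29 and did not pass (DESeq2, adjusted p = 0.314 and 0.297). It also did not pass without any 1 of the HPLM libraries, by edgeR (adjusted p = 0.0779) or with spike-in scaling (DESeq2, adjusted p = 0.319). Like IER3, the sum of the mesenchymal and fibroblast markers was highest in EMEM/F12 library 3 and lowest in libraries 1 and 2. That sum was 1.94 times as high in EMEM/F12 library 3, and 1.63 times as high in HPLM, as in EMEM/F12 libraries 1 and 2, and it is mostly that of COL1A1 and COL1A2, while PDGFRB, TWIST1 and LUM fell in HPLM. The part of these markers in the IER3 result was not tested.

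**Figure D4:**
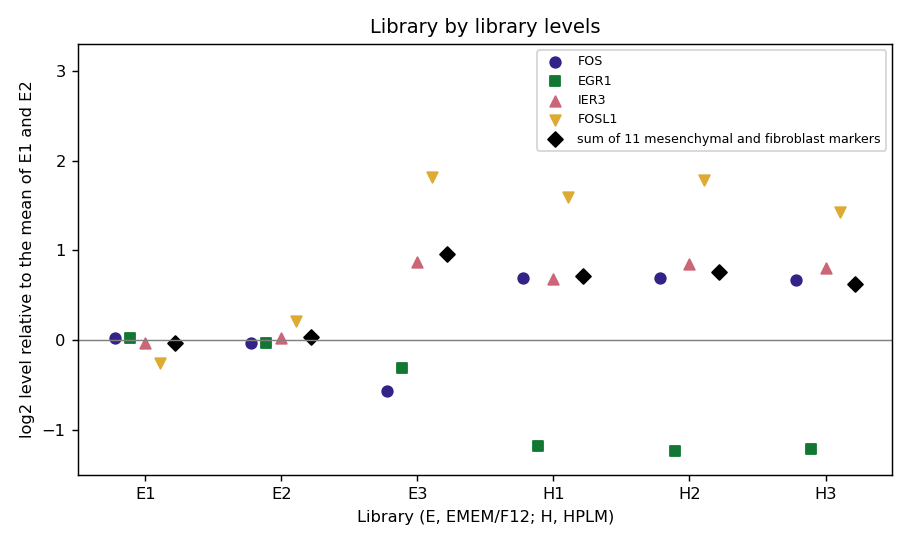
Log2 level of FOS, EGR1, IER3, FOSL1 and the sum of 11 mesenchymal and fibroblast markers in each EMEM/F12 (E) and HPLM (H) library, relative to the mean of EMEM/F12 libraries 1 and 2. In library E3 the IER3, FOSL1 and marker points lie above 0 and the FOS and EGR1 points below.

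Within EMEM/F12, 7 of the 10 members were lowest in library 3 and 2 were highest there (IER3 and EGR3), where 45.6% and 32.1% of all genes were. On the log2(value + 1) scale, library 3 differed from the mean of libraries 1 and 2 by -1.11 for FOSB, -0.56 for FOS and 0.87 for IER3. These 3 lay outside the central 90% of all genes, which ran from -0.43 to 0.70. EGR1 (-0.30), JUND (-0.26), IER2 (-0.24), JUNB (-0.13), NR4A1 (-0.12) and JUN (0.01) lay within it, as did EGR3 (0.43). All 8 adrenergic markers were lowest in library 3 as well, with a median difference of -0.26 on that scale. The part of these markers in the results of the members was not tested.

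Levels of different genes were compared as normalised reads per kilobase of annotated exon. Each length covers all annotated exons of a gene (7295 bases for NR4A1 and 3238 for FOS), whichever isoforms the cells express. The order of the genes and the family shares depend on these lengths. In EMEM/F12 the highest was EGR1 (1963 ± 234), followed by JUND (1558 ± 159), JUNB (1416 ± 79.7), IER2 (1079 ± 102) and JUN (754 ± 18.035). JUND and JUNB overlapped in that order, as did FOS (183 ± 38.7), NR4A1 (180.0 ± 9.65) and IER3 (127 ± 47.8) with the next of them, and FOSB (6.77 ± 2.68) with EGR3 (3.86 ± 1.09). In HPLM the order per kilobase was JUND (1948 ± 94.9), JUNB (1492 ± 62.9), IER2 (1237 ± 45.7), EGR1 (906 ± 17.3), JUN (759 ± 23.98), FOS (331 ± 3.09), IER3 (170.1 ± 9.98), NR4A1 (87.6 ± 5.64), FOSB (9.17 ± 1.64) and EGR3 (4.06 ± 0.825), with no overlap between neighbours. EGR1 thus went from the first to the fourth place, and NR4A1 and IER3 changed places. Among all genes with an annotated length, EGR1 lay at the 98.1th percentile per kilobase in EMEM/F12 and the 94.8th in HPLM, and FOS at the 71.6th and the 83.5th.

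Of the factors that act on these promoters, SRF averaged 4185 ± 337 normalised reads in EMEM/F12 and fell to 2592 ± 13.8 in HPLM (log2 ratio -0.69 ± 0.07). The CREB coactivator gene CRTC3 fell by 0.26 ± 0.05, while CRTC1 rose (0.21 ± 0.08) and CRTC2 did not pass. The acetyltransferase genes EP300 (0.72 ± 0.05) and CREBBP (0.67 ± 0.04) rose. Among 18 such regulators 6 rose, 3 fell and 9 did not pass, and CREB1 was among those that did not pass. The median log2 fold change of the 18 was 0.09 in the authors' deposited table. Of all genes 26.8% rose and 28.8% fell, the shares to set beside this list and those below. Of the SRF partner genes, ELK1 fell (log2 ratio -0.23 ± 0.06), ELK4 rose (0.33 ± 0.07) and ELK3 did not pass. Of 22 MAP kinase cascade genes 5 rose, 7 fell and 10 did not pass, with a median of -0.07 in the authors' deposited table. BRAF (0.78 ± 0.08) and MAPK7, the gene of ERK5 (0.31 ± 0.10), rose, and the ERK-activated kinase gene RPS6KA1 (-0.57 ± 0.05) and MAP2K3 (-0.45 ± 0.06) fell.

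Partners of FOS and JUN in the wider bZIP family did not move downward in any call. Of 13 measured, 7 rose and none fell, beside 26.8% and 28.8% of all genes. The median log2 fold change of these 13 was 0.68 in the authors' deposited table. ATF3, a stress-induced bZIP gene, had 208 ± 55.4 normalised reads in EMEM/F12 and rose to 838 ± 26.3 in HPLM (log2 ratio 2.01 ± 0.22). JDP2, which encodes a repressor that pairs with JUN, rose from 218 ± 20.3 to 619.6 ± 40.4 (1.51 ± 0.09). In EMEM/F12 library 3, 9 of these 13 genes were higher than in libraries 1 and 2, as were 32.1% of all genes. Of the 11 mesenchymal and fibroblast markers, 7 were also higher there and 3 were lower. The part of these markers in the results of this list was not tested.

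The other immediate early genes were mostly higher in HPLM, with 20 of 28 risen and 5 fallen, and a median log2 fold change of 0.54 in the authors' deposited table. Within EMEM/F12, 16 of the 28 were highest in library 3 and 9 were lowest there, beside 32.1% and 45.6% of all genes. Their median difference there was 0.07 on the log2(value + 1) scale. PPP1R15A, also called GADD34, had 576 ± 119.9 normalised reads in EMEM/F12 and rose to 5986 ± 64.6 in HPLM (log2 ratio 3.38 ± 0.17). NFIL3, which encodes a bZIP repressor, rose from 99.1 ± 28.6 to 482 ± 18.7 (2.28 ± 0.24). ARC, a synaptic immediate early gene, fell from 3328 ± 343 to 2217 ± 55.0 (-0.59 ± 0.09), and IER5 from 1113 ± 76.2 to 711 ± 63.6 (-0.65 ± 0.09). BTG2, CTGF and CYR61 did not pass. CTGF and CYR61 were both highest within EMEM/F12 in library 3, with 1109 and 873 normalised reads there, and CYR61 had 315 and 385 in libraries 1 and 2. Their log2 ratios were 0.68 and 1.11 against EMEM/F12 libraries 1 and 2, and -0.12 and -0.21 against library 3.

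Genes that limit the immediate early response also moved. Of 13 feedback phosphatases and ERK inhibitors 10 rose and 1 fell, with a median log2 fold change of 0.59 in the authors' deposited table. DUSP10, a phosphatase of JNK and p38, had 151 ± 5.32 normalised reads in EMEM/F12 and rose to 512 ± 23.0 in HPLM (log2 ratio 1.76 ± 0.05). DUSP4, a nuclear ERK phosphatase, rose from 3769 ± 114 to 8278 ± 176 (1.13 ± 0.03). The 1 that fell was SPRED1 (-0.21 ± 0.05), a call lost under 7 of the 19 alternatives without a fold minimum. A list of 6 factors that bind AU-rich elements, through which FOS mRNA and others are destabilised, holds both decay and stability factors. ZFP36, the gene of tristetraprolin, rose (1.14 ± 0.11), and ZFP36L1 did not pass. The 4 that fell were HNRNPD (-0.82 ± 0.01), ZFP36L2 (-0.69 ± 0.05), KHSRP (-0.40 ± 0.04) and ELAVL1 (-0.28 ± 0.03). The median of the 6, over factors of both kinds, was -0.34 in the authors' deposited table.

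**Figure D5:**
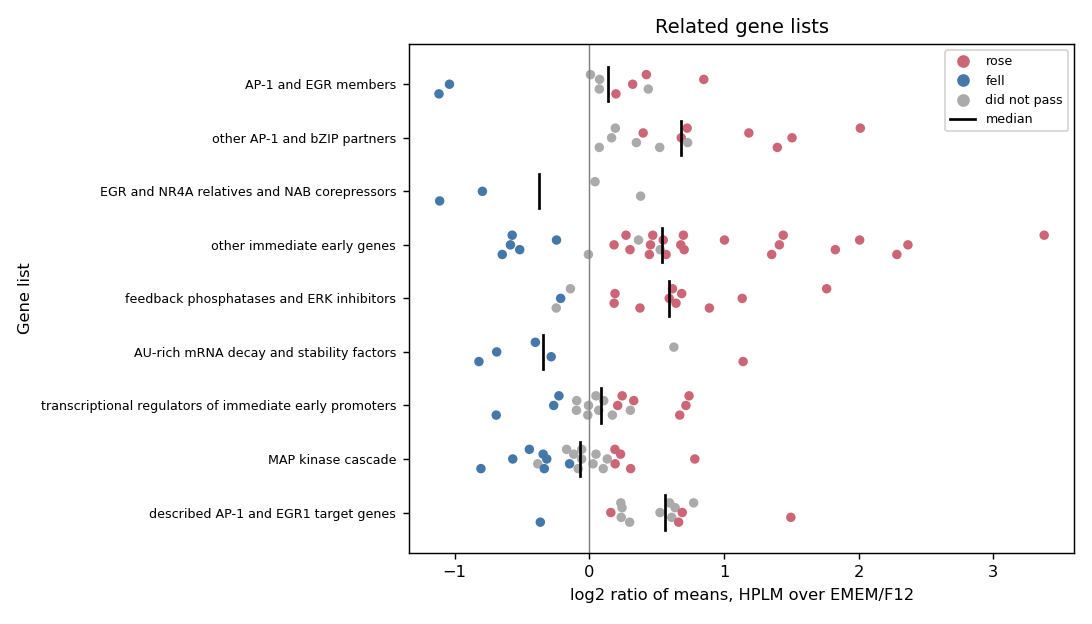
Log2 ratio of means, HPLM over EMEM/F12, of each measured gene in the members and in 8 related lists, coloured by call, with a black bar at the list's median ratio. The members split between -1.12 and 0.85, and the other immediate early genes reach 3.38.

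Of 14 genes described as AP-1 or EGR1 targets, 4 rose, 1 fell and 9 did not pass, with a median log2 fold change of 0.56 in the authors' deposited table. TGFB1 rose 2.82-fold, with means of 1362 ± 29.2 normalised reads in EMEM/F12 and 3842 ± 48.2 in HPLM, HBEGF, the gene of an EGF receptor ligand, rose (0.69 ± 0.08), and the cyclin D1 gene CCND1 fell (-0.36 ± 0.04). In EMEM/F12 library 3, 11 of the 14 were higher than in libraries 1 and 2, as were 32.1% of all genes. The median difference of the 14 was 0.88 on the log2(value + 1) scale, and that of the mesenchymal and fibroblast markers was 1.27. The part of these markers in the results of this list was not tested. PLAU, the urokinase gene, measured 269, 252 and 718 normalised reads in EMEM/F12 and 584, 670.0 and 638 in HPLM. Over the 8 related lists 53 of 118 genes rose and 23 fell, beside 26.8% and 28.8% of all genes.

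Likeness to FOS, JUN and EGR1 was measured as Pearson's r of log2(value + 1) over the 6 libraries. The search covered the 1652 other genes that averaged 100 normalised reads or more and spanned 1 or more on that scale. The 6 libraries fall into 2 media and share their normalisation, so r is a description. EGR1 was most like GNG4, a G protein subunit gene (r = 0.9999), the pseudogene DDX12P (0.9998), the nucleoside transporter genes SLC29A4 (0.9997) and SLC29A2 (0.9994), and the Polycomb gene CBX2 (0.9994). FOS was most like the pseudogene NOC2LP1 (r = 0.992), CCSER1 (0.990), U2AF1L4 (0.987), the protocadherin gene PCDHB6 (0.987) and the homeobox gene CUX2 (0.987). These genes shared with FOS its lowest value in EMEM/F12 library 3. JUN, which barely varied, had no close match, with HTRA1 (r = 0.623) ahead of PDE1C, MEST, LATS2 and FRMD4A (0.490 to 0.531).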

How the data were processed

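Polyadenylated RNA of BE(2)-C cells from 2 media was sequenced, and the labels' protocols name a TruSeq kit of version 2, a chemistry that loses the strand. The submitters' processing notes list GRCh38 as the build and, without saying what each did, DESeq2, Subread 1.5.2, STAR 2.5.2b and Trimmomatic 0.36. Which annotation was counted is not given in the sources used here.

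A single table was deposited, with 16005 genes and 46 spike-ins on its 16051 lines. In its 6 library columns the authors give a signal, namely read counts divided by a factor for each library. Dividing by the step of each column gave whole reads for 100% of values (tolerance 0.01 reads). It also holds the authors' log2 fold changes, and the authors' p-values and adjusted p-values, as its headers name them. DESeq2 1.42.0 run on those reads made the same 8908 calls as the deposited table, spike-ins included.

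GEO lists 1 sample per medium, so the 3 columns of a medium were treated as repeat runs of it, and the authors' test at an adjusted p under 0.05 was the main test. Means, SDs (n = 3 libraries) and log2 ratios of means with propagated SEs were computed with Python 3.11.15. Intervals are 95% Wald intervals of the DESeq2 fit. edgeR 4.0.16, limma 3.58.1 and other fits were run as alternatives, and the fitting scripts were tested on simulated data. Exon lengths and coordinates come from GENCODE release 29 on GRCh38, and promoters from RefSeq on GRCh38.p14.

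The members and lists were chosen with earlier results of these data known. Named genes are the 10 members, from each related list up to 2 called genes that rose most and 2 that fell most among those with a mean of at least 100, and the 5 genes most like FOS, JUN and EGR1. FOSL1, FOSL2, ELK1, ELK4, the markers and the other genes named beyond that rule were chosen after their values were seen. Each library held 17504237 to 21676080 reads. A count of 0 allows up to 3 reads, or 2.68 to 3.49 normalised reads by library, a limit for counting error only.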

Additional observations from a re-analysis of the deposited data

How the results depend on the processing

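The falls of EGR1 and NR4A1 and the rises of FOS and JUND kept their direction and call under all alternatives, except that FOS and JUND fall short of a log2 fold change of at least 1. With that minimum, 0 members, 863 of all genes and 16 genes of the related lists rose, and 1077 of all genes and 1 of the related lists fell. The number of members that rose was 2 by limma with either pseudocount, 2 with spike-in scaling, and 2 to 4 with each library left out in turn. Recentring on the median gene left JUN at -1.08e-07, a rounding residue of 0, since JUN lies at that median. Uncalled members changed sign elsewhere: JUN to -0.054 with spike-in scaling and to between -0.020 and 0.026 with each library left out, and EGR3 to -0.00063 with spike-in scaling and to between -0.14 and 0.23 with each library left out. Of 25 named genes of the related lists, 24 kept their call under the 19 alternatives without the fold minimum. With the library number as a replicate block, 3 members rose and 2 fell by DESeq2, and 4 rose and 2 fell by edgeR, a fit added after the data were seen. The numbers share only a label, since same-numbered libraries had correlations of deviations of -0.08, -0.14 and -0.24. FOSB and EGR3 rest on 11 to 64 reads per library, which limits what could be detected for them.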
